A study of Mus musculus with 6 samples.

Results

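The genes of cholesterol and fatty acid synthesis and of their control by the SREBP transcription factors were followed in pancreatic islets with and without the long noncoding RNA Paupar. The set was chosen by gene symbol and held 31 genes in 4 roles: 19 of sterol synthesis, 1 of sterol transport, 5 SREBP regulators and 6 of fatty acid synthesis. All 31 were among the 53670 genes of the table and among the 15915 genes with enough reads to test. Libraries were made from islets freed with collagenase from 6-week-old mice, 3 of genotype Paupar +/+ (wild type, WT) and 3 of genotype Paupar -/- (knockout, KO). The labels give no strain, no description of the allele, no sex and no word on pooling of animals. Nor do they tie each replicate to an animal of its own, so the p-values below reflect the spread among these 6 samples, which may be technical. Library values are listed throughout in the order of replicates 1 to 3.

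Total counts per library ran from 25733194 to 27285009. Paupar itself gave 177, 252 and 111 counts in the WT libraries but 4, 0 and 4 in the KO libraries, which matches the labels. Beta and alpha cell markers were detected in every library, with none at 0. The summed level of 8 beta cell markers was 215198 to 233992 CPM (counts scaled to library size with TMM factors) in WT. In KO it was 277745 to 285735, with no overlap, and most of the sum came from Ins1 and Ins2. All KO libraries were above all WT libraries for 4 of the 8, as for 11.4% of all tested genes. By log2 fold change 6 of the 8 were positive and 2 negative, Mafa at -0.22 and Nkx6-1 at -0.087. The 6 endothelial markers summed to 279 to 346 CPM in WT and 375 to 419 in KO, also with no overlap. The 5 alpha cell markers summed to 33830.4 to 44075 CPM in WT and 30463 to 35377 in KO, with overlap, also in Gcg. The other 4 had all KO libraries below all WT libraries, as had 12.1% of all tested genes. The summed level of 11 acinar cell markers was 58795, 31375 and 18679 CPM in the WT libraries and, lower on average but overlapping, 36595, 26009 and 13888 in the KO libraries. The part of these cell types in the fold changes below was not tested, other than by the acinar covariate given with the results. Xist, the RNA of the inactive X chromosome, gave 1, 6 and 3 counts in the WT libraries but 0, 1120 and 862 in the KO libraries, so the sex of the animals cannot be told apart from genotype in KO replicates 2 and 3. In these bulk samples, fewer cells of a type and less RNA per cell cannot be told apart.

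Cholesterol is built from acetyl-CoA through mevalonate, isoprenoid units, squalene and lanosterol, and fatty acids are built from the same acetyl-CoA through malonyl-CoA. SREBP2 chiefly drives the sterol genes and SREBP1c chiefly the fatty acid genes: both are held in the endoplasmic reticulum with their escort SCAP by INSIG proteins when sterol is plentiful, and are cut free in the Golgi when it is scarce. In beta cells, membrane cholesterol bears on granule formation and exocytosis, and excess lipid is known to impair insulin secretion.

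Promoter sequences are shown here for 3 members because the sterol genes carry the largest share of positive fold changes below and are known as common targets of SREBP together with the CCAAT-binding factor NF-Y. They span 250 bases before to 50 bases after the start of the gene in RefSeq on build GRCm38.p6, 5′ to 3′ on the gene's strand. Capitals mark matches to TCACNCCAC, a sterol regulatory element type motif, and to CCAAT, each searched on both strands, so that ATTGG is CCAAT on the other strand. Hmgcs1 was the only matched member that held TCACNCCAC. Idi1, with the highest fold change of the sterol genes, and Insig1, the most variable regulator, were chosen after their values were seen. Hmgcs1 lies on the plus strand at chr13:119690101-119690400, Idi1 on the plus strand at chr13:8885356-8885655 and Insig1 on the plus strand at chr5:28071162-28071461.
Hmgcs1: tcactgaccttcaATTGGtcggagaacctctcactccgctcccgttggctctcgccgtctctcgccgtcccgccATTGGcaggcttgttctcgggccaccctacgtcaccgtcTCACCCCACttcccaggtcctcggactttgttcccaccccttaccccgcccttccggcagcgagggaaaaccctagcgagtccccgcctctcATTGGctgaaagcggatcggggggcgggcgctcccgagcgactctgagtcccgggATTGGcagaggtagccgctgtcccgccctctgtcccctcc
Idi1: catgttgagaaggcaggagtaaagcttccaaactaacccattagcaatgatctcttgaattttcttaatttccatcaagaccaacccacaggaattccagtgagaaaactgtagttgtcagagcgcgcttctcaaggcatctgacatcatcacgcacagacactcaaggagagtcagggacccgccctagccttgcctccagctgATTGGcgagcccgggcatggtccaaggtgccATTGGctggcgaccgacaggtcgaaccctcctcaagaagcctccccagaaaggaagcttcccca
Insig1: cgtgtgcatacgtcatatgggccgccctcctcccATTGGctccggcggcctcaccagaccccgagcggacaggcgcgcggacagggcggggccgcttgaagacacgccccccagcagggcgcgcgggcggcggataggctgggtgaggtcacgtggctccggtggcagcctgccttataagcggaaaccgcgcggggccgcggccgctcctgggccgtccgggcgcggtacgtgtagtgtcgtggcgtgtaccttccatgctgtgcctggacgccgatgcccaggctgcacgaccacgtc

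The match in Hmgcs1, TCACCCCAC, begins 137 bases before the start. Promoters of 25 of the 31 members were in the table. TCACNCCAC was found in 1 of these 25 members and in 1.44% of all 27025 genes with a promoter (1.24% of 32851 promoters). CCAAT was found in 21 of 25 members, or 84.0%, and in 41.1% of all genes (37.4% of promoters). It was found in 15 of 16 sterol synthesis members, 4 of 5 regulators and 2 of 4 fatty acid synthesis members. At least 2 copies were found in 12 of 25 members, or 48.0%, and in 13.3% of all genes. A match is a description of these letters and not a bound site.

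None of the 31 genes differed between KO and WT islets past the threshold. The sterol synthesis genes had 0.11 as their median log2 fold change, while the fatty acid synthesis genes stood at -0.014, against 0.0023 over all tested genes. Positive values were found for 17 of 19 sterol synthesis genes, 3 of 6 fatty acid synthesis genes and 2 of 5 regulators, where 50.3% of all tested genes were positive. One of the 17, Mvk, lay at 0.00024. For 10 of the 19 sterol synthesis genes the absolute log2 fold change was below its standard error. For 19 of the 31 members it was below the SD within groups on the log2 scale. The largest positive values were those of Idi1, at 0.40, and Msmo1, at 0.39, and the largest negative value was that of Scd1, at -0.71.

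In edgeR's quasi-likelihood test with Benjamini-Hochberg adjustment over all tested genes, 0 of 31 members passed at an adjusted p below 0.05, where 27 genes, or 0.170%, passed over the whole table. DESeq2 and limma-voom also called 0 members, while over the table DESeq2 called 553 genes, or 4.38% of the 12618 with an adjusted p (1.24% higher and 3.14% lower in KO). At an unadjusted p below 0.05, edgeR found 1 member (Fdft1, higher) and 16.4% of all tested genes. The KO libraries all lay above the WT libraries for 3 members, Fdft1, Nsdhl and Stard4, and all below for 1, Scap. Over all tested genes 11.4% lay above and 12.1% below, so the members' share was not above that of the table. For 21 of the 31 members the 95% interval of the fold change lay within 1.5-fold in either direction, and for the other 10 the interval did not leave out a difference of that size.

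**Figure D1:**
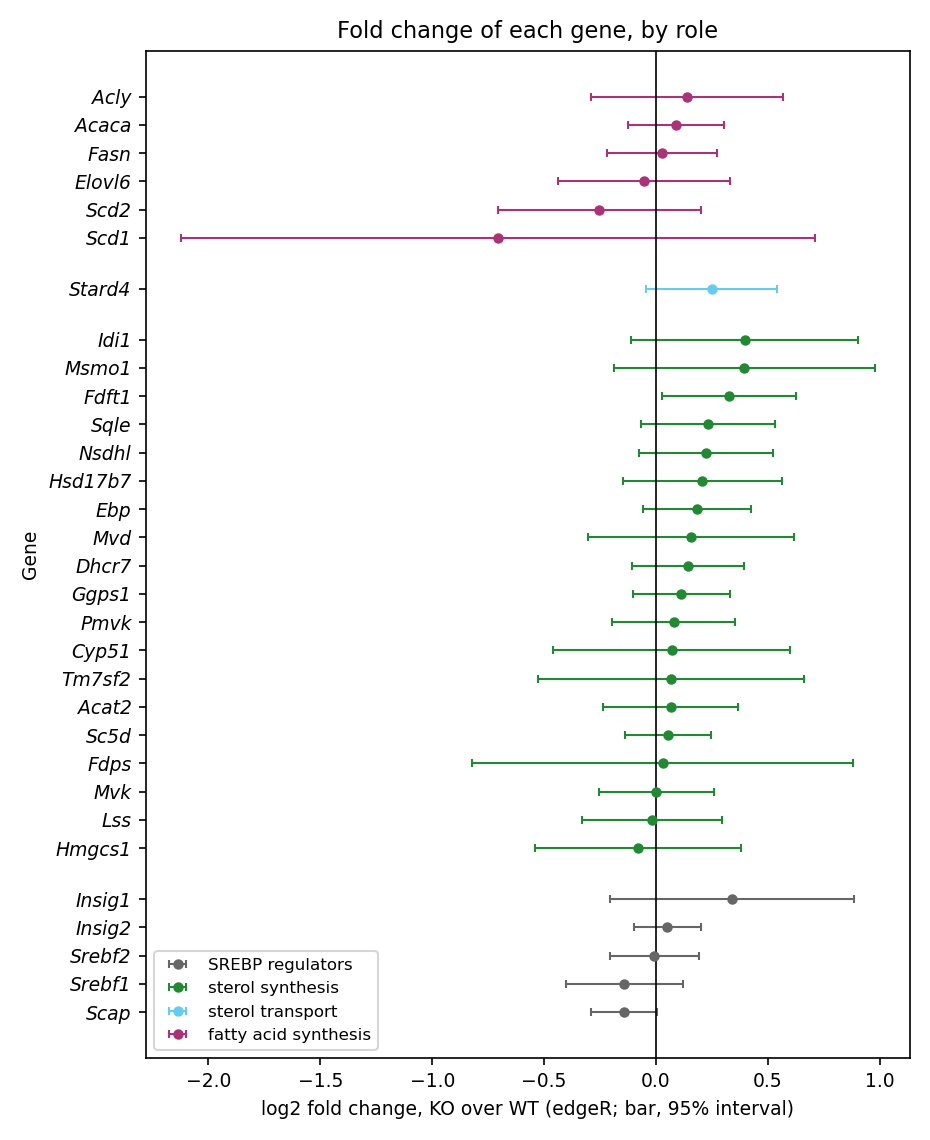
Fold change of each of the 31 genes, grouped by role. The horizontal axis is the log2 fold change of KO over WT from edgeR and the bars are 95% intervals. All intervals but that of Fdft1 include 0, and that of Scd1 is the widest.

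None of the 5 regulators passed, Insig1 had both the largest fold change and the largest spread, and Scap was the only one whose groups did not overlap. Srebf1, which encodes the precursors of SREBP1a and SREBP1c (chromosome 11, 60012591 to 60036083 in mm9), was at 117, 108 and 122 CPM in the WT libraries and at 88.7, 110.1 and 116 CPM in the KO libraries. KO replicate 1 was the lowest of the 6 libraries and the other KO libraries lay among the WT libraries, for a fold change (log2, KO over WT) of -0.14 (SE 0.11, adjusted p = 0.572). With offsets for exonic length and GC content it was 0.030. Srebf2, which encodes the SREBP2 precursor (chromosome 15, 81977696 to 82035806), was at 158, 164 and 152 CPM in the WT libraries and at 142, 168 and 164 CPM in the KO libraries. The groups overlapped and the fold change was -0.0069 (SE 0.084, adjusted p = 0.979), with a 95% interval of -0.21 to 0.19.

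Scap, the sterol-sensing escort of the SREBPs (chromosome 9, 110235792 to 110287450), was at 66.4, 71.0 and 65.8 CPM in the WT libraries and at 61.7, 60.2 and 62.2 CPM in the KO libraries. Every KO library was below every WT library, yet the fold change of -0.14 (SE 0.062, adjusted p = 0.323) did not pass, and with the length and GC offsets it was 0.034. Exons of a gene on the opposite strand covered 18.9% of its exonic bases, and the sources used here do not say whether counting used strand.

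Insig1, an anchor protein that retains SCAP and is itself an SREBP target (chromosome 5, 28397952 to 28405201), was at 115, 77.1 and 92.9 CPM in the WT libraries and at 84.2, 151 and 125 CPM in the KO libraries. KO replicates 2 and 3 were the highest libraries and KO replicate 1 the second lowest, so the groups overlapped, with a fold change of 0.34 (SE 0.23, adjusted p = 0.513). Against the WT libraries, KO replicate 1 alone gave -0.17, and without that library the value was 0.54 with an adjusted p of 0.287. Insig2, its paralogue, which is less dependent on SREBP (chromosome 1, 123200930 to 123229166), was at 58.7, 55.2 and 59.0 CPM in the WT libraries and at 58.2, 61.4 and 59.5 CPM in the KO libraries. It was among the steadiest members, with a fold change of 0.051 (SE 0.063, adjusted p = 0.731). Per kilobase of exon, mean WT levels were 35.9 ± 7.20 CPM for Insig1, 31.7 ± 1.22 for Srebf2, 20.5 ± 1.28 for Srebf1, 16.6 ± 0.611 for Insig2 and 13.0 ± 0.547 for Scap (SD, n = 3). Insig1 and Srebf2 did not differ beyond their spread in that order.

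**Figure D2:**
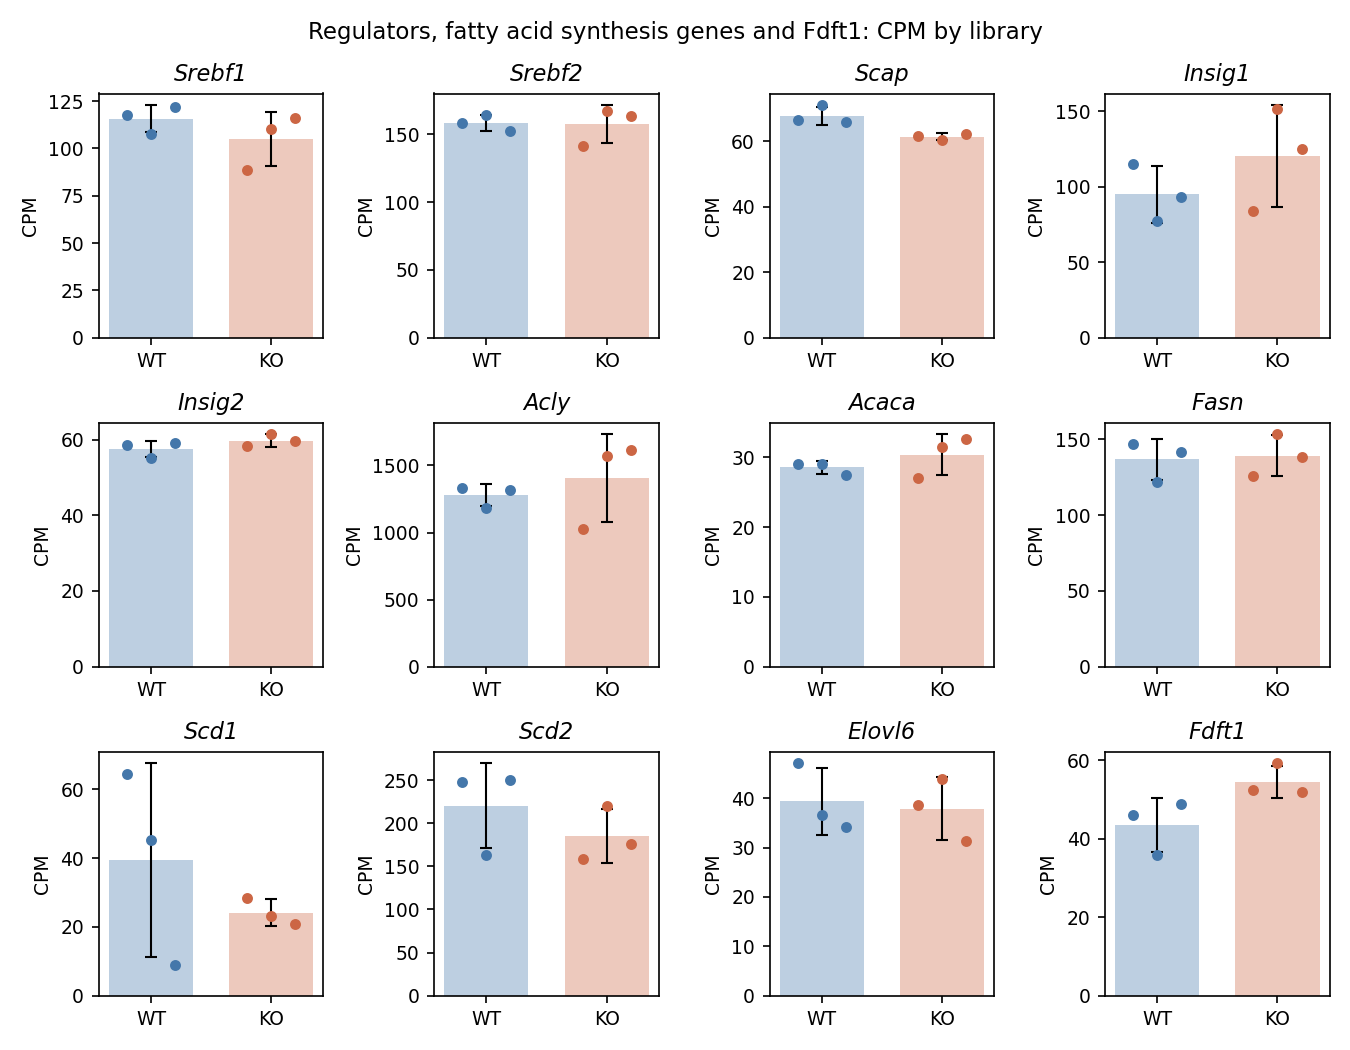
CPM in each library for the 5 regulators, the 6 fatty acid synthesis genes and Fdft1. The vertical axis is TMM-scaled CPM, points are libraries in replicate order, bars are means and whiskers SD over 3 libraries. The groups overlap in every panel except those of Scap and Fdft1.

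In the upper sterol pathway, from acetyl-CoA to squalene, the fold changes of Hmgcs1 and Mvk were the lowest and those of Idi1 and Fdft1 the highest, and none passed. Acat2, a cytosolic thiolase that makes acetoacetyl-CoA, had a log2 fold change of 0.065. Hmgcs1, the HMG-CoA synthase whose promoter is printed above, was at 53.2, 35.8 and 62.6 CPM in the WT libraries and at 43.0, 49.99 and 50.5 CPM in the KO libraries. WT replicate 3 was the highest library and WT replicate 2 the lowest, with all KO libraries between them, and its fold change of -0.079 (SE 0.19, adjusted p = 0.877) was the lowest of the sterol genes.

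The mevalonate kinase gene Mvk (chromosome 5, 114894278 to 114910600) was at 9.38, 9.47 and 8.67 CPM in the WT libraries and at 9.16, 9.73 and 8.63 CPM in the KO libraries. Its fold change was 0.00024, with a 95% interval of -0.26 to 0.26. The phosphomevalonate kinase gene Pmvk had a log2 fold change of 0.079 and the mevalonate diphosphate decarboxylase gene Mvd one of 0.16.

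Idi1, the isomerase that makes dimethylallyl diphosphate (chromosome 13, 8884852 to 8891641), was at 7.51, 4.53 and 6.22 CPM in the WT libraries and at 7.49, 9.35 and 7.20 CPM in the KO libraries. WT replicate 2 was the lowest library and KO replicate 2 the highest, while WT replicate 1 exceeded KO replicates 1 and 3. The fold change of 0.40 (SE 0.21, adjusted p = 0.413) was 0.22 without WT replicate 2, 0.27 without KO replicate 2 and 0.58 without WT replicate 1. Fdps, the farnesyl diphosphate synthase gene, held only 21 to 45 counts per library and had a log2 fold change of 0.029, with a 95% interval of -0.82 to 0.88. Its level is uncertain, since reads shared with near-identical copies may be missing from its count, which was not tested. Ggps1, which makes geranylgeranyl diphosphate on a branch that leaves the sterol route, had a log2 fold change of 0.11.

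Fdft1 encodes squalene synthase, the first enzyme committed to sterols (chromosome 14, 63763990 to 63796630). It was at 45.9, 35.8 and 48.8 CPM in the WT libraries and at 52.4, 59.3 and 51.8 CPM in the KO libraries. Every KO library was above every WT library, and WT replicate 2 was the lowest. Means ± SD over 3 libraries were 43.5 ± 6.85 CPM in WT islets and 54.5 ± 4.14 CPM in KO islets. The fold change of 0.32 (SE 0.13, adjusted p = 0.279) was past the threshold only before adjustment, and it ran from 0.20 to 0.42 without single libraries. Exons of the cathepsin gene Ctsb on the opposite strand covered 26.9% of its exonic bases. Ctsb was at 289 ± 11.03 CPM in WT islets and 338 ± 8.80 CPM in KO islets, with every KO library above every WT library and a fold change of 0.23 (SE 0.069, adjusted p = 0.204). Without strand in the counting, reads of the overlap cannot be assigned to one of the pair, and the part of Ctsb in the Fdft1 value was not tested.

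From squalene to cholesterol, all enzymes but Lss had positive values and none passed. Sqle, the squalene epoxidase and a rate-limiting step, stood at 124 ± 17.5 CPM in WT islets and 146 ± 15.6 CPM in KO islets (SD over 3 libraries), with a fold change of 0.23 (SE 0.13, adjusted p = 0.415). Lss, the lanosterol synthase gene (chromosome 10, 75994333 to 76019883), was at 43.3, 30.4 and 36.2 CPM in the WT libraries and at 33.8, 38.0 and 36.8 CPM in the KO libraries. The KO libraries lay inside the WT range and the fold change was -0.018 (SE 0.13, adjusted p = 0.965). The lanosterol demethylase gene Cyp51 had a log2 fold change of 0.070 and the sterol reductase gene Tm7sf2 one of 0.067.

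Msmo1, the sterol C4-methyl oxidase (chromosome 8, 67196936 to 67212589), was at 90.4, 55.7 and 97.6 CPM in the WT libraries and at 92.8, 138 and 90.0 CPM in the KO libraries. WT replicate 2 was the lowest and KO replicate 2 the highest, and the other 4 libraries lay close together, with a fold change of 0.39 (SE 0.25, adjusted p = 0.478). It was 0.18 without WT replicate 2 and 0.17 without KO replicate 2. Nsdhl, which acts with Msmo1 in removing the C4 methyl groups and lies on the X chromosome (70163896 to 70203853), was at 10.6, 9.14 and 10.6 CPM in the WT libraries and at 10.7, 11.4 and 13.3 CPM in the KO libraries. Every KO library was above every WT library, the lowest KO library by a small margin, with a fold change of 0.22 (SE 0.13, adjusted p = 0.435). KO replicates 2 and 3 also differed from the other libraries in Xist, and the part of sex in this X-linked gene was not tested. Hsd17b7, the reductase of the same complex, had a log2 fold change of 0.21.

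The last steps were led by Ebp, the X-linked sterol isomerase, with a log2 fold change of 0.18, followed by the reductase gene Dhcr7 at 0.14 and the desaturase gene Sc5d at 0.055. None of these passed, the smallest adjusted p among them being 0.429 for Ebp. Per kilobase of exon, WT levels in the sterol arm ran from 0.926 ± 0.387 CPM for Fdps, uncertain as said above, to 22.4 ± 3.15 for Sqle (SD, n = 3), with Hmgcs1 lacking a length in the annotation. Below Sqle, Sc5d at 16.1 ± 1.03, Ggps1 at 15.6 ± 1.33 and Fdft1 at 15.2 ± 2.40 did not differ beyond their spread.

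Stard4, a soluble sterol carrier and SREBP2 target (chromosome 18, 33359009 to 33373516), was at 41.2, 38.6 and 36.8 CPM in the WT libraries and at 42.1, 55.0 and 41.4 CPM in the KO libraries. KO replicate 2 was far above the other libraries, and the other KO libraries exceeded the highest WT library only slightly. The fold change was 0.25 (SE 0.12, adjusted p = 0.376), and without KO replicate 2 it was 0.10.

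**Figure D3:**
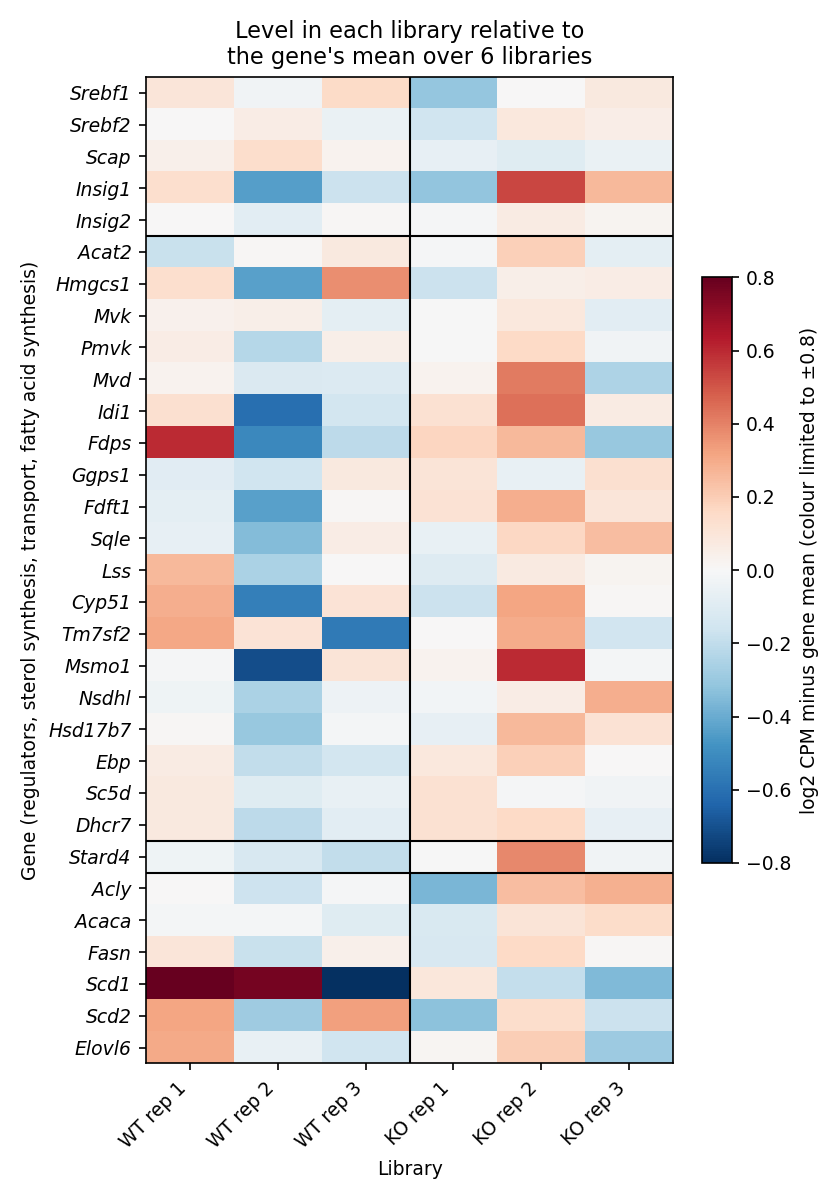
Level of each gene in each library as log2 CPM minus the gene's mean over 6 libraries, with colour limited to ±0.8. Rows are genes in their roles and columns are libraries, WT left of the vertical line. WT replicate 2 is blue and KO replicate 2 red for most sterol synthesis genes, and Scd1 has the strongest colours.

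Most sterol synthesis genes shared their lowest library, WT replicate 2, and their highest, KO replicate 2. WT replicate 2 was the lowest of the 6 libraries for 15 of 19 sterol synthesis genes, or 78.9%, where it was the lowest for 21.1% of all tested genes. KO replicate 2 was the highest for 11 of 19, or 57.9%, against 15.9% of all tested genes. The other libraries were highest for 0 to 3 sterol genes and lowest for 0 to 2. The median deviation of the 19 genes from their means was 0.057, -0.25 and -0.018 on the log2 scale in the WT libraries against 0.0040, 0.19 and 0.0018 in the KO libraries. WT replicate 1 was above KO replicates 1 and 3, so the groups overlapped. The median log2 fold change of the arm was 0.083 without WT replicate 2 and 0.075 without KO replicate 2, and 0.25 without WT replicate 1. The number of positive sterol genes was 14 of 19 without WT replicate 2 and 11 of 19 without KO replicate 2.

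The fatty acid arm showed no common direction. Acly, the ATP citrate lyase that supplies cytosolic acetyl-CoA to both arms (chromosome 11, 100337667 to 100389314), was at 1329, 1185 and 1320.3 CPM in the WT libraries and at 1029.8, 1572 and 1618 CPM in the KO libraries. KO replicates 2 and 3 were above all WT libraries and KO replicate 1 below all of them. The KO libraries split in the same way in Insig1, Xist and Ddx3y, and the part of sex was not tested. The fold change of Acly was 0.14 (SE 0.18, adjusted p = 0.748), and it was -0.31 in KO replicate 1 alone against WT. Acaca, the acetyl-CoA carboxylase that makes malonyl-CoA (chromosome 11, 83943174 to 84215153), was at 29.1, 29.0 and 27.5 CPM in the WT libraries and at 27.0, 31.5 and 32.6 CPM in the KO libraries. It had the same order of KO libraries as Acly at a smaller scale, with a fold change of 0.090 (SE 0.090, adjusted p = 0.664).

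Fasn, the fatty acid synthase (chromosome 11, 120667254 to 120685492), was at 147, 122 and 142 CPM in the WT libraries and at 126, 153 and 138 CPM in the KO libraries. The groups covered almost the same range, with a fold change of 0.026 (SE 0.10, adjusted p = 0.929) and a 95% interval of -0.22 to 0.27. Elovl6, which elongates palmitate to stearate (chromosome 3, 129235304 to 129341413), was at 47.1, 36.7 and 34.3 CPM in the WT libraries and at 38.6, 43.8 and 31.2 CPM in the KO libraries. WT replicate 1 was the highest and KO replicate 3 the lowest, and the fold change was -0.054 (SE 0.16, adjusted p = 0.902).

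The stearoyl-CoA desaturase genes Scd1 and Scd2, neighbouring paralogues that introduce the double bond of oleate, were the most negative members. Scd1 (chromosome 19, 44468941 to 44482199) was at 64.4, 45.2 and 8.89 CPM in the WT libraries and at 28.4, 23.3 and 20.9 CPM in the KO libraries. All KO libraries lay inside the wide WT range, between WT replicates 2 and 3, and the fold change was -0.71 (SE 0.60, adjusted p = 0.602). Its spread within groups, an SD of 1.06 on the log2 scale, was above that of 98.9% of tested genes. Scd2 (chromosome 19, 44368166 to 44381354) was at 248, 164 and 250.02 CPM in the WT libraries and at 159, 220.0 and 176 CPM in the KO libraries, with WT replicate 2 among the KO libraries and a fold change of -0.25 (SE 0.19, adjusted p = 0.561). Reads shared by the paralogues may have been lost or split by the counting.

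Scd1 had the library order of the acinar marker sum within each group of 3, but not in every pair of libraries across groups. WT replicate 1 held the highest level of Scd1 and the highest acinar sum, and both had the same order of libraries within WT and within KO. WT replicate 2 held more Scd1 than KO replicate 1 at a lower acinar sum, and WT replicate 3 held less Scd1 than KO replicate 3 at a higher one. With the log2 acinar sum as a covariate the fold change of Scd1 was 0.033 and that of Scd2 -0.26. The part of acinar cells in these values was not otherwise tested. Without WT replicate 3, the library with the least Scd1, the value for Scd1 was -1.17 (adjusted p = 0.0647). Fat cells express these genes strongly, and of 10 adipocyte markers 6 or 7 were at 0 in each library, among them Adipoq, Cfd, Retn and Lep in all 6. The adipocyte sum was 3.74, 2.64 and 8.15 CPM in WT against 17.8, 7.86 and 5.35 in KO, mostly from Fabp4, and the part of fat cells in the Scd1 and Scd2 values was not tested.

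**Figure D4:**
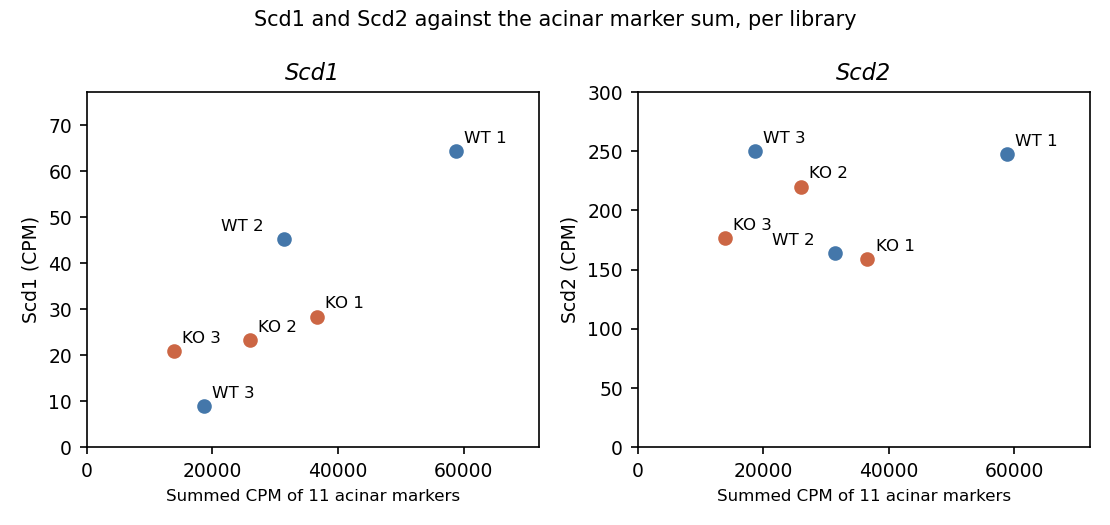
Scd1 (left) and Scd2 (right) in CPM against the summed CPM of 11 acinar markers, 1 point per library. WT replicate 1 is highest on both axes for Scd1, and WT replicates 1 and 3 hold nearly the same Scd2 level at the highest and the second lowest acinar sum.

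Per kilobase of exon, WT levels in the fatty acid arm were 242 ± 15.3 CPM for Acly, 40.4 ± 9.02 for Scd2, 13.9 ± 1.36 for Fasn, 8.16 ± 5.83 for Scd1, 6.61 ± 1.15 for Elovl6 and 2.80 ± 0.0865 for Acaca (SD, n = 3). Fasn, Scd1 and Elovl6 did not each differ from the next beyond their spread, that of Scd1 being wide. The 6 genes summed to 1864, 1581 and 1783 CPM in WT against 1408, 2044 and 2017 in KO, most of it from Acly. The 19 sterol synthesis genes summed to 625, 474 and 631 CPM in WT against 603, 712 and 639 in KO.

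Set side by side, the sterol arm stood above the fatty acid arm in KO relative to WT by 0.13 on the log2 scale, the difference of the medians given above. Outside the set the medians had the other order, 0.036 over 27 other sterol genes and 0.11 over 33 other fatty acid genes, described below. The median deviation of the fatty acid arm was 0.20, -0.11 and -0.051 in the WT libraries against -0.12, 0.15 and -0.084 in the KO libraries. Sterol minus fatty acid was -0.14, -0.14 and 0.033 in WT against 0.13, 0.037 and 0.086 in KO. The groups did not overlap, but WT replicate 3 and KO replicate 2 were separated by less than the spread within either group. No p is given, since the members were chosen with results known. The difference was 0.040 with the length and GC offsets and 0.30 when KO replicate 1 was the only KO library, with the fatty acid arm at -0.21 and 0 of its 6 genes positive. When single libraries were left out it ran from 0.11 to 0.19.

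**Figure D5:**
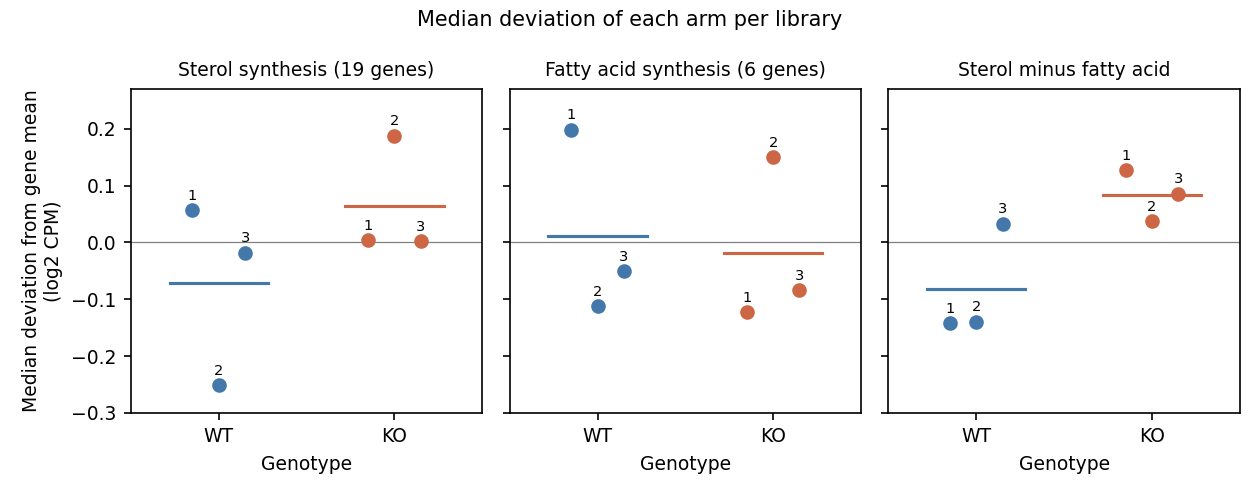
Median deviation of the sterol synthesis genes (left), of the fatty acid synthesis genes (middle) and their difference (right) in each library, in log2 CPM relative to each gene's mean over 6 libraries. Points carry the replicate number and lines are group means. KO replicate 2 is high and WT replicate 2 low in the left panel, and the groups are separated by a narrow gap in the right panel.

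Other genes of the pathway gave no call in edgeR, and 2 of those named here, Npc2 and Fads6, passed in DESeq2. Among the 12618 genes with an adjusted p in DESeq2, 4.38% passed. The genes named here were picked for a small unadjusted p, so these 2 passes are no measure of the pathway. Of 27 tested genes of sterol uptake, storage, export and synthesis outside the set, 0 passed in edgeR, 14 were positive and 13 negative, with a median of 0.036. At an unadjusted p below 0.05, 3 were higher and 1 lower in KO, where 6.99% and 9.38% of all tested genes were. By log2 fold change, the 4 with the smallest p were the lysosomal cholesterol carrier gene Npc2, at 0.28 (SE 0.078, adjusted p = 0.180), the HDL receptor gene Scarb1, at 0.33 (SE 0.10, adjusted p = 0.209), the liver X receptor gene Nr1h2, at -0.23 (SE 0.075, adjusted p = 0.218), and the cholesteryl ester hydrolase gene Nceh1, at 0.27 (SE 0.10, adjusted p = 0.248). The groups of these 4 genes, picked for a small p, did not overlap. Over the 27 genes, KO lay wholly above WT for 3 and wholly below for 3, where 23.4% of all tested genes did either. Npc2 passed in DESeq2 (adjusted p = 0.0490).

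Of 16 further regulators of SREBP and lipogenic transcription, 0 passed in edgeR, 8 were positive and 8 negative, with a median of 0.037. Before adjustment, 3 were higher and 1 lower in KO at p below 0.05, beside 6.99% and 9.38% of all tested genes. KO lay wholly above WT for 3 and wholly below for 1, beside 11.4% and 12.1% of all tested genes. Log2 fold changes are given for 3 of those with the smallest p, Mid1ip1, an activator of acetyl-CoA carboxylase, at -0.19, the site-2 protease gene Mbtps2, which makes the second SREBP cut, at 0.20, and the endoplasmic reticulum lipid raft gene Erlin2, at 0.17. Their adjusted p ran from 0.264 to 0.290 in edgeR.

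Of 33 tested genes of fatty acid elongation, desaturation, activation and esterification, 0 passed in edgeR, 23 were positive and 10 negative, with a median of 0.11. At an unadjusted p below 0.05, 5 were higher and 0 lower, beside the 6.99% and 9.38% of all tested genes given above, of which 50.3% were positive. Fads6, a fatty acid desaturase family gene, was at 30.8, 25.6 and 26.4 CPM in the WT libraries and at 34.0, 36.9 and 41.5 CPM in the KO libraries. Every KO library was above every WT library, with a fold change of 0.44 (SE 0.11, adjusted p = 0.159) in edgeR. It passed in DESeq2 (adjusted p = 0.0312). Elovl5, which elongates polyunsaturated chains, had a log2 fold change of 0.19, and the 3-hydroxyacyl-CoA dehydratase genes Hacd2 and Hacd3, which serve every round of elongation, had values of 0.32 and 0.18. All their KO libraries were above all WT libraries, but these genes were picked for a small unadjusted p. Over the 33 genes, KO lay wholly above WT for 7 and wholly below for 0, where 11.4% and 12.1% of all tested genes did. The adjusted p of Elovl5, Hacd2 and Hacd3 ran from 0.173 to 0.273 in edgeR.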

How the data were processed

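RNA sequencing of isolated islets was analysed in 3 WT and 3 KO libraries, with groups and replicate numbers from the labels. According to their protocols, total RNA was prepared with a TruSeq RNA kit. Per the submitters' processing notes, CASAVA 1.8.2, HISAT2 2.1.0, HTSeq, DESeq2 and build mm9 were used; annotation and strand setting: not given in the sources used here. The deposited values are whole-number read counts per gene, with no normalization by the authors seen in them and 0 columns left unmatched.

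Counts were tested in R 4.3.3 with edgeR 4.0.16 (filterByExpr, TMM, quasi-likelihood F-test of KO against WT, Benjamini-Hochberg over all 15915 tested genes, threshold 0.05). Levels are TMM-scaled CPM as mean ± SD over 3 libraries. Log2 fold changes (KO divided by WT), their standard errors (SE) and 95% intervals come from that test. Medians of roles are descriptions with no test. Exonic length, GC content and mm9 positions came from GENCODE vM1 on NCBIM37 by symbol or unique synonym (93.7% of tested genes, 30 of 31 members). Promoters came from RefSeq on GRCm38.p6.

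The members, gene lists, marker lists and alternatives were chosen with earlier results of these data known. By the naming rule, every member is named, with library values for the fatty acid genes, the regulators, the 3 highest and 3 lowest sterol genes and members whose groups do not overlap, and up to 4 other genes per pathway list by unadjusted p; Ctsb was added after its values were seen, and 1 gene that the rule names is not reported here. Alternatives were DESeq2 1.42.0, limma-voom (limma 3.58.1), other scalings and filters, the replicate number as a block, length and GC offsets (mgcv 1.9.3), an acinar covariate, KO replicate 1 alone (assumed to vary like the WT libraries) and leaving out each library. The edgeR script was tested on simulated data. Depth per library was 25733194 to 27285009 counts, and members held 21 to 42927 counts per library. Figures were drawn with matplotlib 3.10.9.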

Additional observations from a re-analysis of the deposited data

How the results depend on the processing

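No member was called under any of the 17 alternatives. The count over all genes, 27, was 553 in DESeq2, 132 at an adjusted p below 0.1, 1 in KO replicate 1 alone, 0 in limma-voom, with the replicate block, with the length and GC offsets and with the acinar covariate, and 0 to 89 when single libraries were left out (89 without WT replicate 3, 5 without KO replicate 1 and 0 without any other). The labels do not say whether replicate numbers pair the libraries. Same-numbered WT and KO libraries had correlations of deviations of 0.20, 0.032 and 0.056, and differently numbered ones from -0.16 to 0.077. So few values cannot decide on pairing. The block took the count of calls to 0 and the smallest adjusted p of a member to 0.336. The sterol median ran from 0.075 to 0.25 without single libraries and the fatty acid median from -0.11 to 0.095. The fatty acid median was -0.21 in KO replicate 1 alone, and the difference between the arms was 0.040 with the offsets, 0.30 in KO replicate 1 alone and 0.11 to 0.19 without single libraries. Several fold changes took the other sign, among them those of Scd1 (-0.71 in the main fit) and Insig1 (0.34), which were not small. In KO replicate 1 alone the values of the other sign were Cyp51 (-0.17), Insig1 (-0.17), Acly (-0.31), Acaca (-0.077), Fasn (-0.12) and Mvk (-0.00037). With the offsets they were Fdps (-0.037), Ggps1 (-0.014), Lss (0.15), Sc5d (-0.047), Srebf1 (0.030), Srebf2 (0.15) and Scap (0.034). With the acinar covariate they were Lss (0.021), Scd1 (0.033) and Elovl6 (0.078). Srebf2 was 0.0056 with no filter and 0.0024 in DESeq2. Mvk was -0.014 with library sizes that leave out the 10 most abundant genes, -0.0042 with at least 1 CPM in 3 libraries, -0.00045 in limma-voom and -0.00028 with the block. Without single libraries, the fold changes that crossed 0 ran from -0.016 to 0.13 for Acat2, -0.28 to 0.11 for Hmgcs1, -0.044 to 0.043 for Mvk, -0.0090 to 0.13 for Pmvk, -0.039 to 0.30 for Mvd, -0.18 to 0.42 for Fdps, -0.14 to 0.12 for Lss, -0.14 to 0.25 for Cyp51, -0.14 to 0.26 for Tm7sf2, -0.053 to 0.065 for Srebf2, -0.053 to 0.093 for Fasn and -0.17 to 0.10 for Elovl6. The cause of these shifts was not tested. Paupar kept its direction under all alternatives but passed the threshold only in some. Fdps, at 21 to 45 counts per library, had the widest interval of the members after Scd1.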
